A study of Mus musculus with 24 samples.

Results

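The DNA replication genes are 48 genes whose products license replication origins, unwind DNA, copy it, or supply the fork with deoxynucleotides. Members were found by gene name: every row of the count table whose name is on the list was taken. All 48 names were found among 51697 named genes, and all 48 passed the filter on low counts in every comparison. They fall into roles: 6 subunits of the MCM helicase (Mcm2 to Mcm7), 6 of the origin recognition complex (Orc1 to Orc6), 3 licensing factors and inhibitors (Cdc6, Cdt1, Gmnn), and 8 factors that activate the helicase. The others are 9 polymerase and primase subunits, 6 genes of the sliding clamp and its loader, 2 of Okazaki fragment processing, 3 of replication protein A, 3 of S-phase entry (Ccne1, Ccne2, E2f1) and the 2 subunits of ribonucleotide reductase (Rrm1, Rrm2).

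RNA was sequenced from F123 cells, a mouse embryonic stem (ES) cell line, carrying CTCF fused to an auxin-inducible degron, a tag that leads to destruction of the protein when auxin is in the medium. CTCF is the DNA-binding protein that anchors chromatin loops, and the question named by the series title is how its binding near promoters bears on activation by distant enhancers. The 12 groups have 2 libraries each, all of the same edited line. ES cells were sampled at 0 h, without auxin, and after 24, 48 and 96 h with it. Cells taken through neural progenitor differentiation were sampled on days 2, 4 and 6 without auxin (controls) or with it. Washout cells had auxin until day 4 or day 6 and were harvested 2 days after its removal. The day 4 washout is therefore matched in day with the day 6 groups, whereas the day 6 washout has no control of its own day. The auxin stock was 500 mM, with 1 µl added to each ml of medium and the medium renewed every 24 h. Every group, controls included, carries the degron, and auxin-treated cells without it were not analysed here. Whether 2 replicates were separate cultures is not stated in the labels, and p-values then measure only the spread between these libraries.

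Before S phase the origin recognition complex, Cdc6 and Cdt1 load MCM rings on DNA, and geminin (Gmnn) holds Cdt1 back once S phase has begun. Cdc7 with Dbf4, Mcm10, Cdc45 and the GINS complex turn the loaded ring into a moving helicase, behind which polymerases, the Pcna clamp and its loader RFC work. Many of these genes are transcribed under E2F factors, which cyclin E and its kinase release from pocket proteins at the end of G1. Mouse ES cells have a very short G1 and express cyclin E and replication genes strongly, and neural differentiation is known to lengthen G1.

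Because E2F sites are the element these genes are best known to share, their promoters were searched for 4 E2F words, TTTCCCGC, TTTCGCGC, TTTGCCGC and TTTGGCGC, on both strands, from 250 bases before to 50 after each RefSeq start (build GRCm38.p6, mm10). A promoter was found for 39 of the 48 genes, and 15 of them (38.5%) held a word, against 587 of 19143 counted genes with a promoter (3.07%). Promoters differ in base composition too, with a median GC content of 62.3% for these genes and 55.7% for all. 6 stretches are printed here, 200 bases before the start and 30 from it on, because their genes are described through the results: Rfc3, Cdc6 and Mcm7 hold a word and were lower with auxin, Mcm5 and Mcm6 hold overlapping words on opposite strands and were called at 0 and 1 of 4 auxin stages, and Rrm2 holds none and was lower with auxin at 4 stages. The 6 are examples, and no link between words and calls was tested. Orc1, Gins3, Pold3 and Lig1 hold a word without an overlapping pair and were called at 0 of the 4 stages. Capitals mark the E2F words.
Rfc3: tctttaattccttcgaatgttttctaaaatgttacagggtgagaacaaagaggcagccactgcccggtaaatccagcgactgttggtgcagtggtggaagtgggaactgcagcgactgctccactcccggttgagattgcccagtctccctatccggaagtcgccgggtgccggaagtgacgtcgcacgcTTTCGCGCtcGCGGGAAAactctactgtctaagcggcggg
Cdc6: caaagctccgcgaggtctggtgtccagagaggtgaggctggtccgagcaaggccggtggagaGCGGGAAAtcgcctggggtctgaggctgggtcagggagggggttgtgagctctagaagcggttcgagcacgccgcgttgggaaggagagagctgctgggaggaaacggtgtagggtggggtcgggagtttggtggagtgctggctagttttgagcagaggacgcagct
Mcm7: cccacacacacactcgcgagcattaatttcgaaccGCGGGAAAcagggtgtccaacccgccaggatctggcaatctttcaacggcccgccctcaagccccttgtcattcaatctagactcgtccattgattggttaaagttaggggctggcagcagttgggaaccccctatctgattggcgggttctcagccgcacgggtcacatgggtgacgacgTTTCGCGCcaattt
Mcm5: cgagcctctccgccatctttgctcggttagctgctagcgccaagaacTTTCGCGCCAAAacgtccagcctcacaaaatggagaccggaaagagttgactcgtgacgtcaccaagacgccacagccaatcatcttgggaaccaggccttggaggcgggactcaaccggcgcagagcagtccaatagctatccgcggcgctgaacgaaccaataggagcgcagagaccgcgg
Mcm6: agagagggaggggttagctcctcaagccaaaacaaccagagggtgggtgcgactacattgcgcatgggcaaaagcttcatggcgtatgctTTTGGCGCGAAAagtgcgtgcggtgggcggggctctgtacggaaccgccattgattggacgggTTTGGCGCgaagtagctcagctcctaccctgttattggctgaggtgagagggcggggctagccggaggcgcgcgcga
Rrm2: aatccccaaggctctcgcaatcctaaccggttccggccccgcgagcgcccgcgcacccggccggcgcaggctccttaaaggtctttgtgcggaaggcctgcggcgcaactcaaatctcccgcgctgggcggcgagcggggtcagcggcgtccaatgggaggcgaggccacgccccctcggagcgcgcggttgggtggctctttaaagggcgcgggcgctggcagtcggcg

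In Rfc3 (chr5:151651179-151651408, minus strand) the words begin at positions -10 and 0, where 0 is the RefSeq start. Cdc6 (chr11:98907951-98908180, plus strand) has its word at -138. Those of Mcm7 (chr5:138171854-138172083, minus strand) begin at -165 and at 16, the latter in the first exon. Another RefSeq promoter of Mcm7 holds no word. Mcm5 (chr8:75109309-75109538, plus strand) carries an overlapping pair that begins at -153 and -149. Mcm6 (chr1:128359676-128359905, minus strand) has such a pair at -110 and -106 and a further word at -47. The stretch of Rrm2 lies at chr12:24708054-24708283 on the plus strand. A CCAAT box, the letters CCAAT on either strand, was found in 59.0% of the genes with a promoter and in 41.6% of all counted genes. The element TTTGAA, known from genes of G2 and M phase, was found in 17.9% and 18.7%, while 69.4% of the listed G2 and M phase genes held it. A match describes these letters only.

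The libraries held 24696374 to 72048935 counts, and the 48 genes took 0.575 to 0.902% of them. Among ES cells every replicate 1 library (up to 29909368 counts) was shallower than every replicate 2 library (from 51686150), and 35 to 44 of the 48 genes were higher in replicate 2 of a group. ES groups were therefore compared within replicate number. Spread differed: the SD of the log2 ratio between replicates over all genes was 0.539 to 0.654 in ES groups, 0.3 in day 2 auxin and 0.166 to 0.191 in the other differentiation groups. Ctcf RNA averaged 194.6 to 282.4 CPM over the groups, which does not test loss of the protein. CPM, the unit of levels throughout, is a gene's count scaled to 1000000 counts of the library's effective size, its total multiplied by its TMM normalization factor (0.9254 to 1.054). Folds and tests come from edgeR's quasi-likelihood test, and a gene was called at a Benjamini-Hochberg adjusted p below 0.05 over all genes tested. In bulk RNA, fewer cells in S phase and less RNA per cell cannot be told apart.

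Per length of annotated exons, Rrm2 was the most abundant of the 48 in untreated ES cells, at 294.5 CPM per kb. Ccne1, the E-type cyclin that drives entry into S phase, followed at 136.0 CPM per kb, and then Mcm3 (122.4), Mcm7 (120.6) and Mcm5 (119.0). Ccne2, its paralog, stood at 9.18 CPM per kb. By day 6 of control differentiation Ccne1 was at 51.49 CPM per kb, while Rrm2 (181.9) was still first and Mcm7 (94.13) second. Fen1, the flap endonuclease of Okazaki fragments, is listed last at 2.637 CPM per kb in ES cells, but 84.2% of its exonic length is shared with other genes, so its count is uncertain.

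Summed over the 48 genes, RNA was lower at the later control stages. The sum was 8521 to 9459 CPM in ES cells at 0 h, 8315 to 8566 CPM on day 2, 6993 to 7177 CPM on day 4 and 6499 to 6571 CPM on day 6. Of the 48, 29 had their highest control mean in ES cells and 14 on day 2, and 34 had their lowest on day 6. The same counts over all genes were not computed, so they are not shown to be particular to these genes. Between ES cells and day 2, 5 genes were called lower and 3 higher, where 7.91% and 10.3% of all genes were. Ccne1 fell most, from 335 and 389 CPM to 201 and 196 CPM (log2 fold change -0.87, SE 0.171, adjusted p = 0.00177). Cdt1, which loads MCM rings, went from 264 and 247 CPM to 172 and 177 CPM, and Orc1, Rrm2 and Mcm10 were also called lower. Ccne1 and Cdt1 had no overlap between the 2 stages. Rpa1, the large subunit of the protein that coats single-stranded DNA, rose from 320 and 449 CPM to 726 and 688 CPM (log2 0.88, SE 0.241, adjusted p = 0.0166). Only Ccne1 kept its call without either day 2 control library, and none of the 8 did when the 4 libraries were fitted alone.

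From day 2 to day 4 of control differentiation 24 of the 48 genes were called lower and 3 higher, beside 24.8% and 27.2% of all genes, and the median log2 change was -0.20. Rpa1 returned to 324 and 314 CPM, a 2.19-fold fall (log2 -1.13, SE 0.0599, adjusted p = 8.91e-11). Orc2, a core subunit of the origin recognition complex that shares 29.8% of its exons with Nif3l1, fell from 146 and 138 CPM to 84.6 and 87.2 CPM. Pold2, an accessory subunit of DNA polymerase delta, fell from 85.4 and 89.4 CPM to 54.7 and 53.8 CPM. Neither overlapped between the days. Mcm2 (log2 -0.40), Mcm5 (-0.33), E2f1 (-0.40) and Ccne1 (-0.44) were called lower too. Ccne2 moved the other way, from 22.8 and 21.5 CPM to 34.9 in each replicate (log2 0.68, SE 0.0747, adjusted p = 8.78e-07). Rfc3, a small subunit of the clamp loader, also rose (log2 0.43). Cdc6 (log2 -0.13, adjusted p = 0.0689), Cdt1 (0.05), Gmnn (-0.05), Pcna (-0.14) and Rrm2 (-0.04) were not called.

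From day 4 to day 6, 13 genes were called lower and 3 higher, at a background of 13.1% and 13.6%. Cdt1 fell most, from 178 and 179 CPM to 118 and 134 CPM (log2 -0.50, SE 0.0767, adjusted p = 0.000129). Its inhibitor geminin went from 80.2 and 77.1 CPM to 65.3 and 61.3 CPM (log2 -0.30, adjusted p = 0.03). Mcm2 fell again (log2 -0.29), and Ccne2 rose again, to 49.4 and 44.5 CPM (log2 0.43, adjusted p = 0.000275). Per length, Ccne1 was at 136.0, 74.64, 54.49 and 51.49 CPM per kb in ES cells and on days 2, 4 and 6, its last step not called. Ccne2 was at 9.18, 6.33, 9.995 and 13.43 CPM per kb, lowest on day 2 and below Ccne1 at each stage. Rrm1, the large subunit of ribonucleotide reductase, rose slightly (log2 0.20). Mcm5, Cdc6, Pcna, Ccne1, Rrm2 and E2f1 were not called, with log2 changes between -0.15 and -0.01. Leaving out any 1 of the 4 libraries gave 7 or 8 calls in place of 16, and with all 24 libraries in the fit there was 1 call here and 9 from day 2 to day 4.

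**Figure D1:**
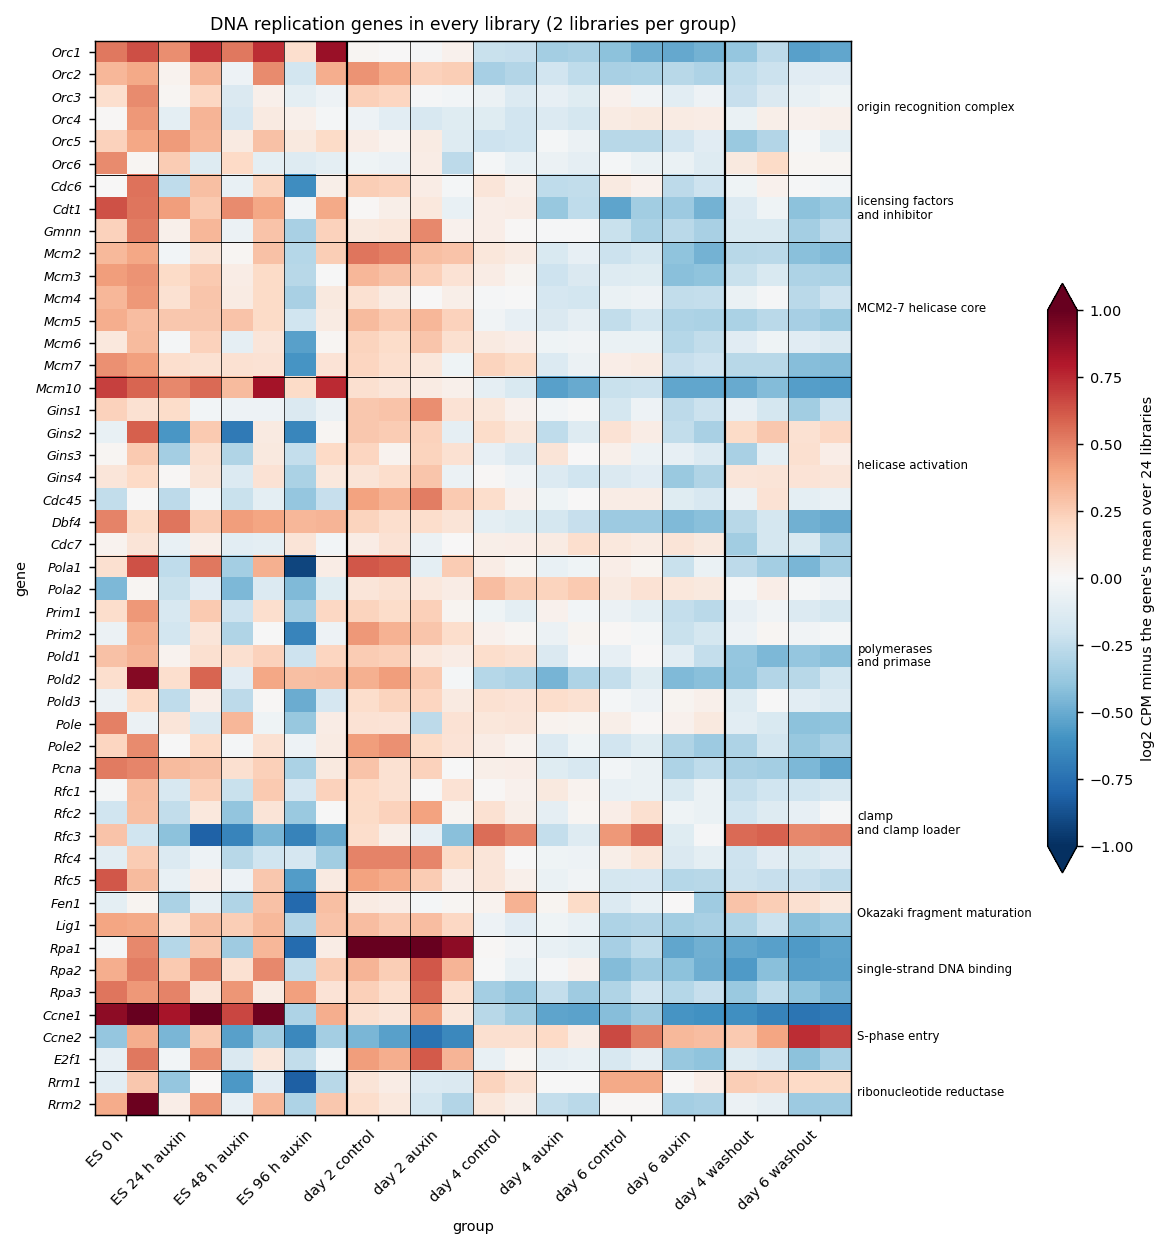
Heat map of the 48 genes (rows, ordered by role) in the 24 libraries (columns, by group), as log2 CPM minus the gene's mean over all 24 libraries (red above, blue below). Untreated ES cells and day 2 controls, where the summed level is 8315 CPM or more, are mostly red, and day 6 auxin, at 5769 to 5807 CPM, mostly blue.

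In ES cells most replication genes had lower levels with auxin than at 0 h, and 5 were called after 96 h. At 24 h none of the 48 was called (0.0933% of all genes were lower and 0.0196% higher), 4 passed at an unadjusted p below 0.05, all lower, and DESeq2 and limma voom each called 0. The median of the 48 was -0.175 beside -0.0104 over all genes tested. Within both replicate numbers 43 of the 48 were lower, beside 30.2% of all genes, and 1 was higher, beside 29.4%. At 48 h none was called either (0.0982% of all genes in each direction), 7 passed unadjusted, all lower, DESeq2 called 2 and limma voom 1, and the median was -0.22. There 40 were lower within both replicate numbers, beside 29.3%, and 0 higher, beside 28.7%. For the unadjusted, DESeq2 and limma voom counts at 24 and 48 h, shares of all genes are not given here. The 3 ES comparisons share the 0 h libraries.

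After 96 h of auxin 5 of the 48 genes were called lower and none higher, where 1.6% of all genes were lower and 1.45% higher. All 48 estimates were negative, the median was -0.383 beside -0.00493 over all genes, and 39 genes were lower within both replicate numbers (26.3% of all genes) and 0 higher (27.2%). Ccne1 fell from 335 and 389 CPM to 146 and 232 CPM, a 1.97-fold drop (log2 -0.98, SE 0.15, adjusted p = 0.0215). Rrm2 fell from 647 and 985 CPM to 403 and 601 CPM (log2 -0.71, SE 0.128, adjusted p = 0.0298), and its partner Rrm1 from 258 and 334 CPM to 157 and 228 CPM (log2 -0.64). The 4 libraries of Ccne1 and Rrm1 did not overlap between 0 h and 96 h, and those of Rrm2 did not either. Pola1, the catalytic subunit of the polymerase that starts each new strand, went from 86.4 and 120 CPM to 40.9 and 81.4 CPM (log2 -0.83, SE 0.163). Mcm3 went from 454 and 465 CPM to 280 and 339 CPM (log2 -0.58, adjusted p = 0.0492). The clamp Pcna (log2 -0.62, adjusted p = 0.0638), Cdc6 (-0.57), Rfc3 (-0.64), Ccne2 (-0.49), Gmnn (-0.42), Cdt1 (-0.41), Mcm5 (-0.40), Mcm2 (-0.38) and E2f1 (-0.38) missed the threshold.

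The 2 ES replicate series did not move by the same amount at 96 h: the median over the 48 genes was -0.536 in replicate 1 and -0.28 in replicate 2. Without replicate number as a block no member was called at 96 h. Without 96 h replicate 2 the number called was 15, without 96 h replicate 1 it was 3, without 0 h replicate 1 it was 2 and without 0 h replicate 2 it was 3. Markers of other cells also differed. Of 7 fibroblast markers Pdgfra was called higher (sums of 180.3 to 286.3 CPM at 0 h and 435.6 to 654.6 CPM at 96 h), and of 8 endoderm markers Gata4 and Gata6 (574.8 to 872 and 676.6 to 1418 CPM). Of 7 young neuron markers Elavl4 and Stmn2 were called lower (223 to 296.4 and 73.17 to 190.5 CPM), and of 8 pluripotency markers Tdgf1 (3869 to 4580 and 2797 to 3376 CPM). Of 6 neural progenitor markers Nkx6-1 was called higher (39.67 to 61.99 and 36.82 to 38.5 CPM). Their part in the lower replication RNA was not tested.

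With auxin during differentiation, replication genes were called lower and never higher on days 2, 4 and 6, and the numbers called were 9, 14 and 18 of 48. The medians over all genes tested were 0.023, 0 and 0.0079. On day 2 the 9 stood beside 8.43% of all genes called lower and 9.84% higher, and the median of the 48 was -0.0703. Pola1 changed most, from 118 and 116 CPM in controls to 72.3 and 91.9 CPM with auxin (log2 -0.50, SE 0.0885, adjusted p = 0.000732). Rrm2 fell from 566 and 538 CPM to 441 and 407 CPM (log2 -0.37, adjusted p = 0.000153). Groups did not overlap for either gene. Rfc3 (log2 -0.35), Pole2 (-0.26), Orc3 (-0.23), Rrm1 (-0.23), Rfc5 (-0.22), Mcm2 (-0.21) and Cdc6 (-0.19) were the other calls. Several genes of the G1/S step were not called: Gmnn was at 107 and 78.8 CPM with auxin beside 81.7 and 82.6 CPM (log2 0.19), and Ccne1 (log2 0.14), E2f1 (0.10), Mcm5 (0.00) and Cdt1 (-0.00) were not lower than controls beyond their spread. The day 2 auxin replicates differed more than others, and leaving out replicate 1 of that group gave 24 calls, all lower, while leaving out replicate 2 gave 7 higher and 12 lower. Without control replicate 1 there were 2 calls. Of 8 young neuron markers 4 were called lower (Tubb3, Elavl4, Stmn2 and Map2) and 2 higher, with sums of 160.8 to 161.9 CPM in controls and 131.4 to 144.8 CPM with auxin. Sox1 and Pax6 were called lower and Nes and Nkx6-1 higher among 8 neural progenitor markers (74.27 to 84.85 and 74.59 to 74.62 CPM). Pluripotency markers had 2 of 8 lower (1902 to 1932 and 1632 to 1789 CPM), endoderm markers 4 of 8 higher and 1 lower (589 to 598.7 and 524.9 to 751.1 CPM) and fibroblast markers 2 of 8 higher (203.1 to 210.5 and 214.7 to 290 CPM). Their part was not tested.

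On day 4 the calls included licensing, helicase and clamp genes. Of the 48, 14 were called lower and 0 higher, beside 11.8% of all genes in each direction, with a median of -0.103. At an unadjusted p below 0.05, 17 were lower and 1 higher, DESeq2 called 14 lower and 0 higher, and limma voom 19 lower and 1 higher. Without control replicate 1 there were 7 calls and without auxin replicate 1 there were 6. On day 6, 18 were called lower and 0 higher, beside 15.2% and 14%, with a median of -0.185. There 25 were lower and 0 higher unadjusted, DESeq2 called 21 lower and 0 higher, and limma voom 28 lower and 0 higher. For either day, shares of all genes at an unadjusted p, in DESeq2 or in limma voom are not given here. Those counts are therefore not shown to be particular to these genes. Without control replicate 2 there were 11 calls, without auxin replicate 1 there were 10, and without auxin replicate 2 also 10. Without any 1 of the libraries compared, the calls of Rfc3, Mcm7, Mcm10, Cdc6 and Rrm2 held on both days, those of Cdt1 on day 4 and those of Gins2, Rrm1, Mcm2 and Mcm3 on day 6. With all 24 libraries in the fit, whose common dispersion was 0.0439 in place of 0.0051, 1 gene was called on day 4, Rfc3, and 0 on days 2 and 6.

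**Figure D2:**
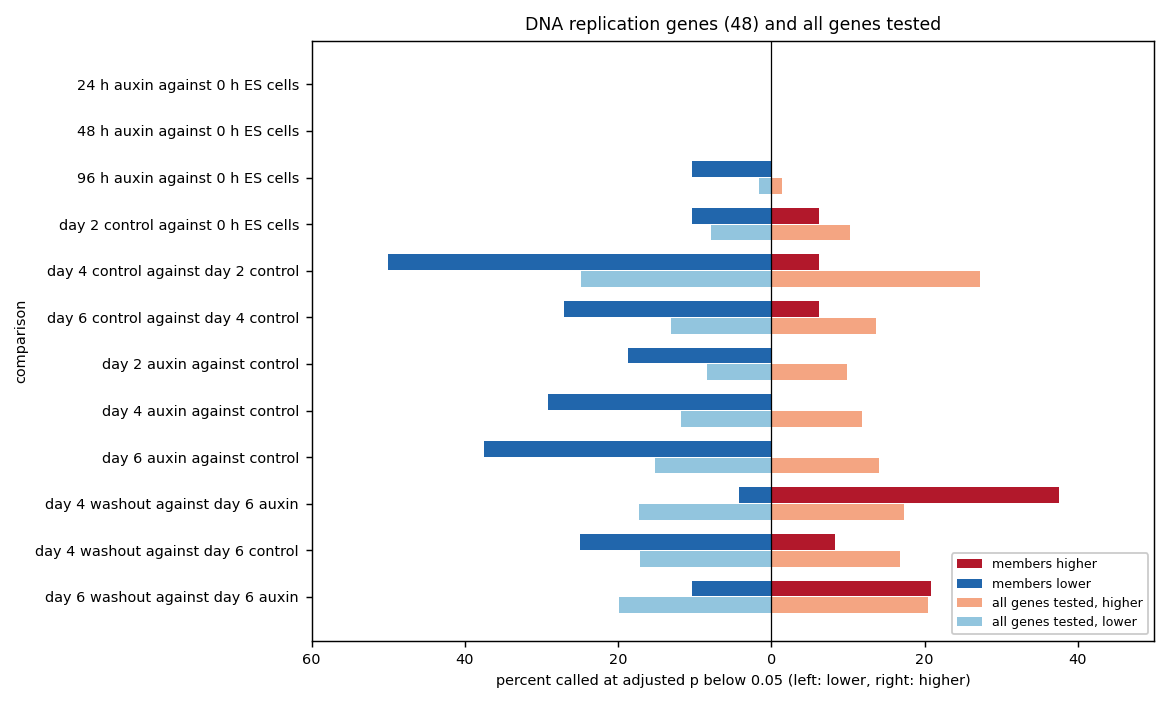
Percent of the 48 replication genes and percent of all genes tested that were called higher or lower in each comparison (bars from 0). With auxin in differentiating cells members were called lower and none higher, 18 of 48 on day 6 beside 15.2% of all genes.

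Rfc3 showed the largest auxin effect on days 4 and 6. On day 4 it stood at 65.6 and 62.8 CPM in controls and at 37.7 and 40.8 CPM with auxin, 1.65-fold lower (log2 -0.72, SE 0.0924, adjusted p = 2.08e-05). On day 6 the values were 60.0 and 65.9 CPM and 40.9 and 44.0 CPM (log2 -0.58, SE 0.0921, adjusted p = 0.000123). Every auxin library was below every control library on each of these days. Controls had gone up from 50.3 and 46.3 CPM on day 2, whereas the auxin libraries of day 2, at 41.9 and 33.2 CPM, overlapped those of day 4. In ES cells it went from 54.2 and 38.8 CPM at 0 h to 33.4 and 25.3 CPM at 24 h without passing the threshold (adjusted p = 0.541). Calls differed among the other RFC genes: Rfc5 was called only on day 2, and Rfc1, Rfc2 and Rfc4 were called with auxin at no stage. Rfc4 and Rfc5 had negative estimates in all 4 comparisons, 96 h in ES cells and days 2, 4 and 6. Differences between genes were not tested. Pcna, the clamp that RFC loads, was called lower on day 4 (186 and 186 to 163 and 159 CPM, log2 -0.21) and on day 6 (175 and 170 to 143 and 149 CPM, log2 -0.25).

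Ribonucleotide reductase, which makes deoxynucleotides from ribonucleotides, was the only role with every gene called lower at 96 h in ES cells and on days 2, 4 and 6. Rrm2, its small subunit, fell from 540 and 521 CPM to 423 and 415 CPM on day 4 (log2 -0.35, SE 0.0543, adjusted p = 0.000143). On day 6 it fell from 504 in each control to 395 and 399 CPM (log2 -0.35, adjusted p = 8.72e-05). Its auxin and control libraries did not overlap on any of the 3 days. Rrm1 went from 323 and 308 CPM to 276 in each replicate on day 4 (log2 -0.20) and from 360 and 359 CPM to 279 and 289 CPM on day 6 (log2 -0.35, SE 0.051, adjusted p = 4.95e-05).

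Among the 6 MCM subunits 4 were called lower on day 4 and 5 on day 6. Mcm7, which shares 12.6% of its exons with other genes, went from 461 and 450 CPM to 359 and 380 CPM on day 4 (log2 -0.31, adjusted p = 0.000833) and from 415 and 418 CPM to 337 and 342 CPM on day 6. Mcm2 went from 404 and 396 CPM to 336 and 353 CPM on day 4 (log2 -0.22) and from 322 and 330 CPM to 282 and 269 CPM on day 6 (log2 -0.25, SE 0.0517, adjusted p = 0.00125). Groups were apart in each case. Mcm3 and Mcm4 were called on both days and Mcm6 on day 6 only. Mcm5 was called on no day, with 367 and 355 CPM beside 340 and 354 CPM on day 4 (log2 -0.07) and 318 and 331 CPM beside 305 and 303 CPM on day 6 (log2 -0.11). Over 96 h in ES cells and days 2, 4 and 6, Mcm5 had 0 calls and Mcm6 had 1, the fewest of the 6.

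The licensing factors differed in their calls on days 4 and 6, and differences between these genes were not tested. Cdc6, the loader of MCM rings, fell from 108 and 103 CPM to 83.1 and 83.5 CPM on day 4 (log2 -0.35, SE 0.0586, adjusted p = 0.000327) and from 106 and 102 CPM to 82.9 and 85.9 CPM on day 6 (log2 -0.31). Cdt1 fell on day 4, from 178 and 179 CPM to 131 and 142 CPM (log2 -0.39, adjusted p = 0.00115). On day 6 its groups overlapped, with 118 and 134 CPM in controls and 132 and 123 CPM with auxin (log2 0.01). Cdt1 is also the gene that fell most between day 4 and day 6 in controls. Geminin was called on no day (log2 -0.06 on day 4 and -0.04 on day 6). The 6 origin recognition genes gave 0 calls on days 4 and 6, and Orc3 alone was called on day 2.

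Helicase activation gave the same 2 calls on both days, Gins2 and Mcm10. Mcm10, which helps the loaded ring to open origins, fell from 131 and 125 CPM to 95.5 and 98.3 CPM on day 4 (log2 -0.41, SE 0.054, adjusted p = 2.64e-05). On day 6 it fell from 119 and 120 CPM to 96.9 and 97.3 CPM (log2 -0.31). Gins2, a GINS subunit, fell from 56.9 and 54.2 CPM to 41.9 and 45.7 CPM on day 4 (log2 -0.35) and from 55.4 and 52.8 CPM to 42.3 and 40.0 CPM on day 6 (log2 -0.41, adjusted p = 0.00185). No auxin library of either gene reached a control library. Of Gins2's exons 67.3% overlap Gse1, and whether counting used strand is not given in the sources used here, so this value is uncertain. Cdc7, Dbf4, Cdc45, Gins1, Gins3 and Gins4 were not called with auxin.

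Polymerase genes gave few calls: Pold1 on day 4 (log2 -0.25), and Pold2 (-0.26), Prim2 (-0.20) and Pole2 (-0.19) on day 6. Okazaki fragment genes gave none, and replication protein A 1, Rpa1 on day 6 (log2 -0.22). At S-phase entry Ccne1 passed on day 4, from 149 and 141 CPM to 125 and 124 CPM (log2 -0.23, adjusted p = 0.0455), and missed on day 6 at nearly the same size (log2 -0.22, adjusted p = 0.0509). Ccne2, which shares 17.4% of its exons with Ints8, was at log2 -0.03 on day 4 and fell from 49.4 and 44.5 CPM to 39.1 and 38.7 CPM on day 6 (log2 -0.28, adjusted p = 0.00732). E2f1, the factor that switches on many of these promoters, had log2 -0.07 on day 4 and fell from 47.3 and 49.6 CPM to 40.7 and 40.0 CPM on day 6 (log2 -0.27, adjusted p = 0.0167).

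**Figure D3:**
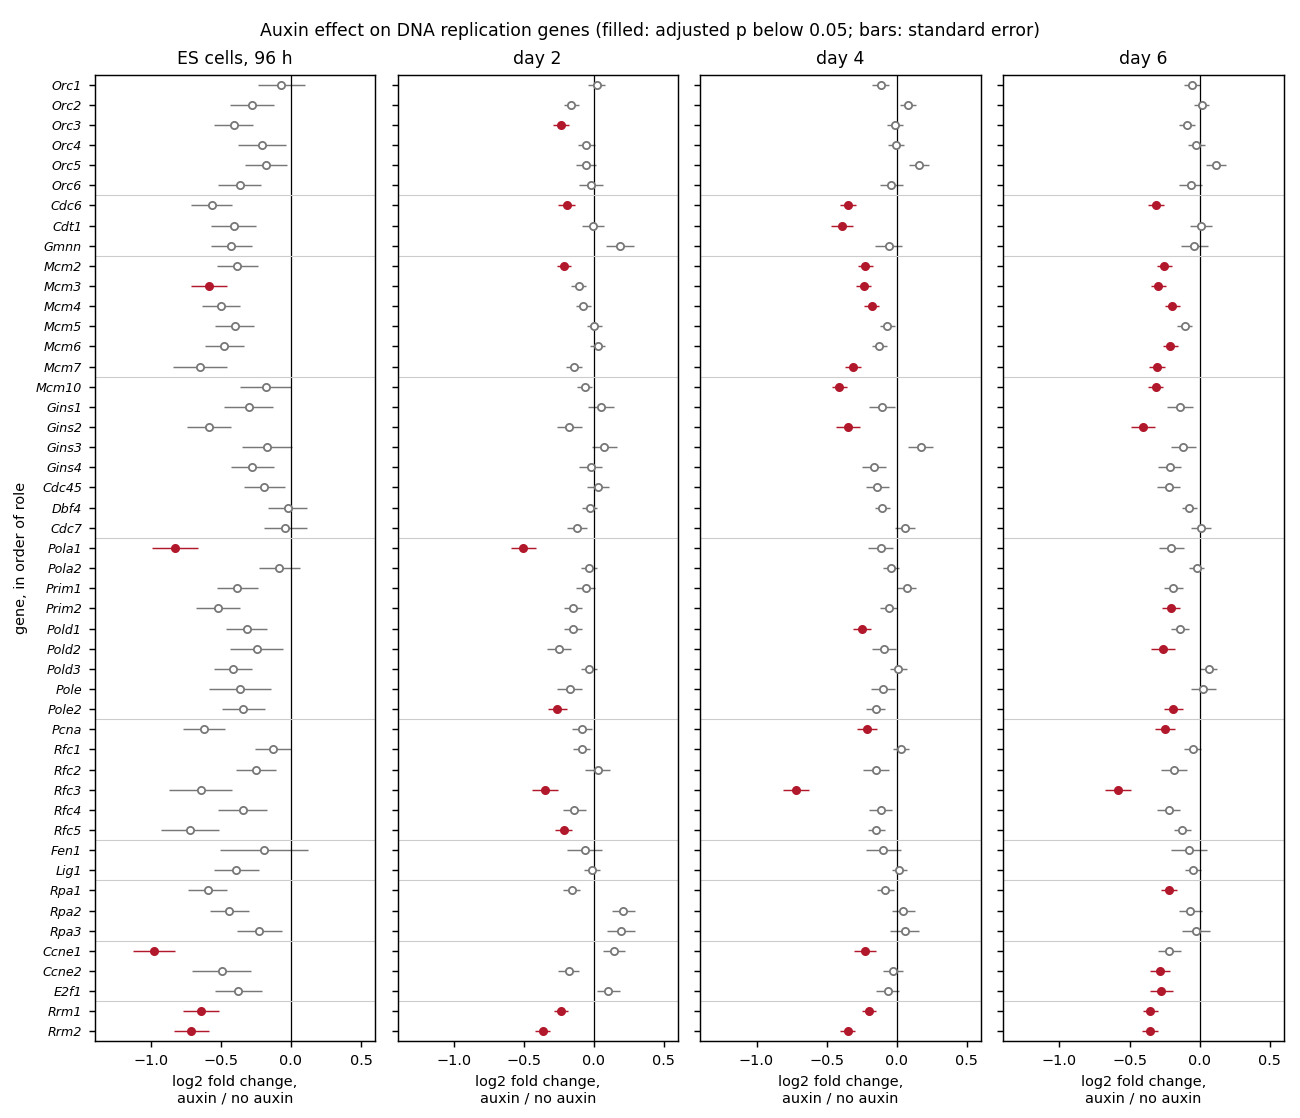
Log2 fold change with auxin for each of the 48 genes (rows, by role) at 96 h in ES cells and on days 2, 4 and 6, with standard errors and called genes marked. Rfc3 lies lowest on days 4 and 6, at -0.72 and -0.58, and Rrm1 and Rrm2 are called in all 4 comparisons.

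Across 96 h in ES cells and days 2, 4 and 6, which share no library, Rrm1 and Rrm2 were called lower 4 times, and Mcm2, Mcm3, Cdc6 and Rfc3 3 times. A further 8 genes were called in 2 of the 4 comparisons and 10 in 1, and 24 were never called. Of the 48, 27 had a negative estimate in all 4. Days 4 and 6 shared 11 calls, which are 78.6% of the 14 and 61.1% of the 18: Mcm2, Mcm3, Mcm4, Mcm7, Mcm10, Cdc6, Gins2, Pcna, Rfc3, Rrm1 and Rrm2. Over the 48 genes the day 4 and day 6 effects had a Pearson r of 0.727 and a Spearman rho of 0.669, and the 96 h and day 6 effects 0.53 and 0.515. These are descriptions across genes, which are not independent replicates and share depth and base composition. Recurrence, shared calls and correlations over all genes tested were not computed, so they are not shown to be particular to these genes.

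Calls fell on genes with and without an E2F word. Of the 15 genes with a word 2 were called lower at 96 h in ES cells, 5 on day 2, 6 on day 4 and 6 on day 6, and of the 24 with a promoter but no word 3, 4, 6 and 8. Median log2 changes with and without a word were -0.408 and -0.31 at 96 h, -0.108 and -0.0647 on day 2, -0.124 and -0.0865 on day 4, and -0.141 and -0.155 on day 6. The difference between these sets was not tested. Rrm2, Rrm1, Mcm2, Mcm10 and Pcna were called without a word in the window.

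Markers of other cells and stages differed between the same groups. The 8 pluripotency markers summed to 620.2 to 630 CPM in day 4 controls and 858.1 to 865.1 CPM with auxin (5 called higher, 1 lower), and to 393.7 to 407 and 680.4 to 694.2 CPM on day 6 (6 higher, 1 lower). The 8 neural progenitor markers summed to 242.8 to 255.2 and 137.3 to 143.6 CPM on day 4 and to 229.7 to 235.8 and 153.1 to 160.8 CPM on day 6, with 7 called lower and 1 higher on each day and Hes5 and Fabp7 near 0 with auxin. The 8 young neuron markers summed to 42.69 to 44.11 and 32.91 to 34.79 CPM on day 4, and to 278 to 292.8 and 36.12 to 37.1 CPM on day 6, where all 8 were lower. Of 8 fibroblast markers 3 were called lower and 1 higher on day 4 (363.8 to 371.7 and 420.8 to 425.9 CPM). On day 6, 6 were lower, among them Col1a2 (57.8 CPM in controls and 14.2 CPM with auxin), while Pdgfra, the largest part of the sum, was higher (309 and 440 CPM). The 8 endoderm markers had 2 called higher and 1 lower on day 4 (2607 to 2812 and 2880 to 3127 CPM), and 3 higher and 1 lower on day 6 (1879 to 2137 and 2498 to 2724 CPM). On day 6 Sox17, Gata4 and Gata6 were higher, Afp was lower, and Cubn, most of the sum, was not called. The part of these cells in the replication result was not tested.

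After washout several of these genes were higher than with auxin, Rfc3, Gins2 and Gins4 by the largest log2 changes. Both washouts are compared with the same day 6 auxin libraries, which also enter the day 6 auxin effect. These results are therefore not independent. Day 4 washout against day 6 auxin gave 18 genes higher and 2 lower, where 17.3% of all genes were called in each direction, and the median of the 48 was 0.0895. Rfc3 rose from 40.9 and 44.0 CPM to 65.7 and 66.8 CPM (log2 0.66, SE 0.0924, adjusted p = 3.85e-05), beside 60.0 and 65.9 CPM in day 6 controls. Gins2 rose to 57.2 and 60.4 CPM (log2 0.53, adjusted p = 0.000187), where controls had 55.4 and 52.8 CPM. Washout libraries of both genes lay above every day 6 auxin library. Gins4, another GINS subunit, rose from 49.9 and 52.5 CPM to 70.1 and 70.7 CPM (log2 0.48), above its controls at 58.3 and 59.6 CPM. Cdt1, at 155 and 165 CPM, was higher than with auxin (log2 0.35) and than in controls (log2 0.36, adjusted p = 0.00183). Rrm2 rose (479 and 469 CPM, log2 0.27), as did Cdc6 (log2 0.25), E2f1 (0.26), Mcm3 (0.24), Mcm4 (0.23), Rrm1 (0.22), Mcm6 (0.21) and Mcm2 (0.18). Fen1 was called higher (log2 0.45) at 7.95 and 7.74 CPM beside 6.56 and 5.10 CPM, with the uncertainty given above.

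Not all genes came back. Mcm7 stayed at 326 in each washout library, beside 337 and 342 CPM with auxin and 415 and 418 CPM in controls (log2 -0.34 against controls, SE 0.0585, adjusted p = 0.000243). Pcna was at 142 and 140 CPM and Mcm10 at 98.4 and 103 CPM, called lower than controls (log2 -0.28 and -0.24). Cdc7, the kinase that fires origins, gave no call with auxin on day 6 (67.8 and 66.5 CPM beside 66.8 and 65.7 CPM) and was lower after washout, at 48.8 and 55.0 CPM (log2 -0.35, adjusted p = 0.00105). Pold1 fell in the same way, to 82.0 and 78.6 CPM (log2 -0.23). In all, 12 genes were lower and 4 higher than in day 6 controls, beside 17.1% and 16.8% of all genes. Mcm5, Gmnn, Pcna, Ccne1 and Ccne2 were not called against day 6 auxin. The 2 comparisons share the washout libraries. In the libraries of both washouts 59.6 to 60.5% of the counts from 1 to 20 were even, beside 65.9 to 78% in all others. Whether they were processed alike is not given in the sources used here, and such a difference cannot be told apart from washout. Against day 6 auxin there were 12 calls without auxin replicate 2 and 13 without auxin replicate 1 or washout replicate 2. Leaving out any 1 library gave 7 to 9 calls against controls, and with all 24 libraries in the fit 1 gene was called against auxin, Rfc3, and 0 against controls.

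The day 4 comparison of auxin with control shares no library with that of day 4 washout with day 6 auxin. Of the 14 genes lower with auxin on day 4, 9 (64.3%) were among the 18 higher in day 4 washout than in day 6 auxin (50% of these): Cdc6, Cdt1, Gins2, Mcm2, Mcm3, Mcm4, Rfc3, Rrm1 and Rrm2. Over the 48 genes the 2 sets of effects had a Pearson r of -0.547 and a Spearman rho of -0.438, a description across genes. The same overlap and correlation over all genes tested were not computed, so they are not shown to be particular to these genes.

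Day 6 washout, later than any control by its label, gave 10 genes higher and 5 lower than day 6 auxin, beside 20.4% and 19.9% of all genes, with a median of 0.0164. Rfc3 was at 62.1 and 62.6 CPM (log2 0.57, SE 0.0923, adjusted p = 0.000125), Gins4 at 71.1 and 70.3 CPM (log2 0.48) and Gins2 at 55.5 and 57.7 CPM (log2 0.48). Ccne2 reached 52.2 and 50.3 CPM, its highest level in the series (log2 0.41, adjusted p = 0.000285). Each of these genes stood above all day 6 auxin libraries. Pole, the catalytic subunit of the leading strand polymerase, fell from 159 and 165 CPM to 116 and 117 CPM (log2 -0.46, adjusted p = 0.000576), and Cdc7, Pola1, Pold1 and Mcm7 were lower too. Rrm2, which rose in the day 4 washout, was at 389 and 390 CPM and not called. Leaving out any 1 of the 4 libraries gave 8 or 9 calls, and the fit with all 24 libraries gave 1, Rfc3. Pluripotency markers summed to 582.1 to 605.2 CPM in the day 4 and 519.6 to 544.1 CPM in the day 6 washout, and fibroblast markers to 838.7 to 878.4 and 1389 to 1431 CPM. Endoderm markers summed to 1833 to 2087 and 1512 to 1567 CPM, beside 2498 to 2724 CPM in day 6 auxin. In the day 6 washout Sox17, Foxa2, Gata6, Afp, Ttr and Apoa1 were called higher than in day 6 auxin. Cubn was called lower there (log2 -1.45), and Gata4 was not called. Neural progenitor markers summed to 216.8 to 224.9 and 230.4 to 246.7 CPM, most of it Nes (194 CPM in the day 4 washout). Against day 6 controls the day 4 washout had 6 of these 8 called lower and Nes higher, with Sox1 at 1.56 beside 15.5 CPM, Pax6 at 9.47 beside 32.9 CPM and Nkx6-1 at 1.97 beside 14.1 CPM. All 8 young neuron markers were lower there too, at 44.11 to 47.33 beside 278 to 292.8 CPM. Their part in the replication values was not tested.

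**Figure D4:**
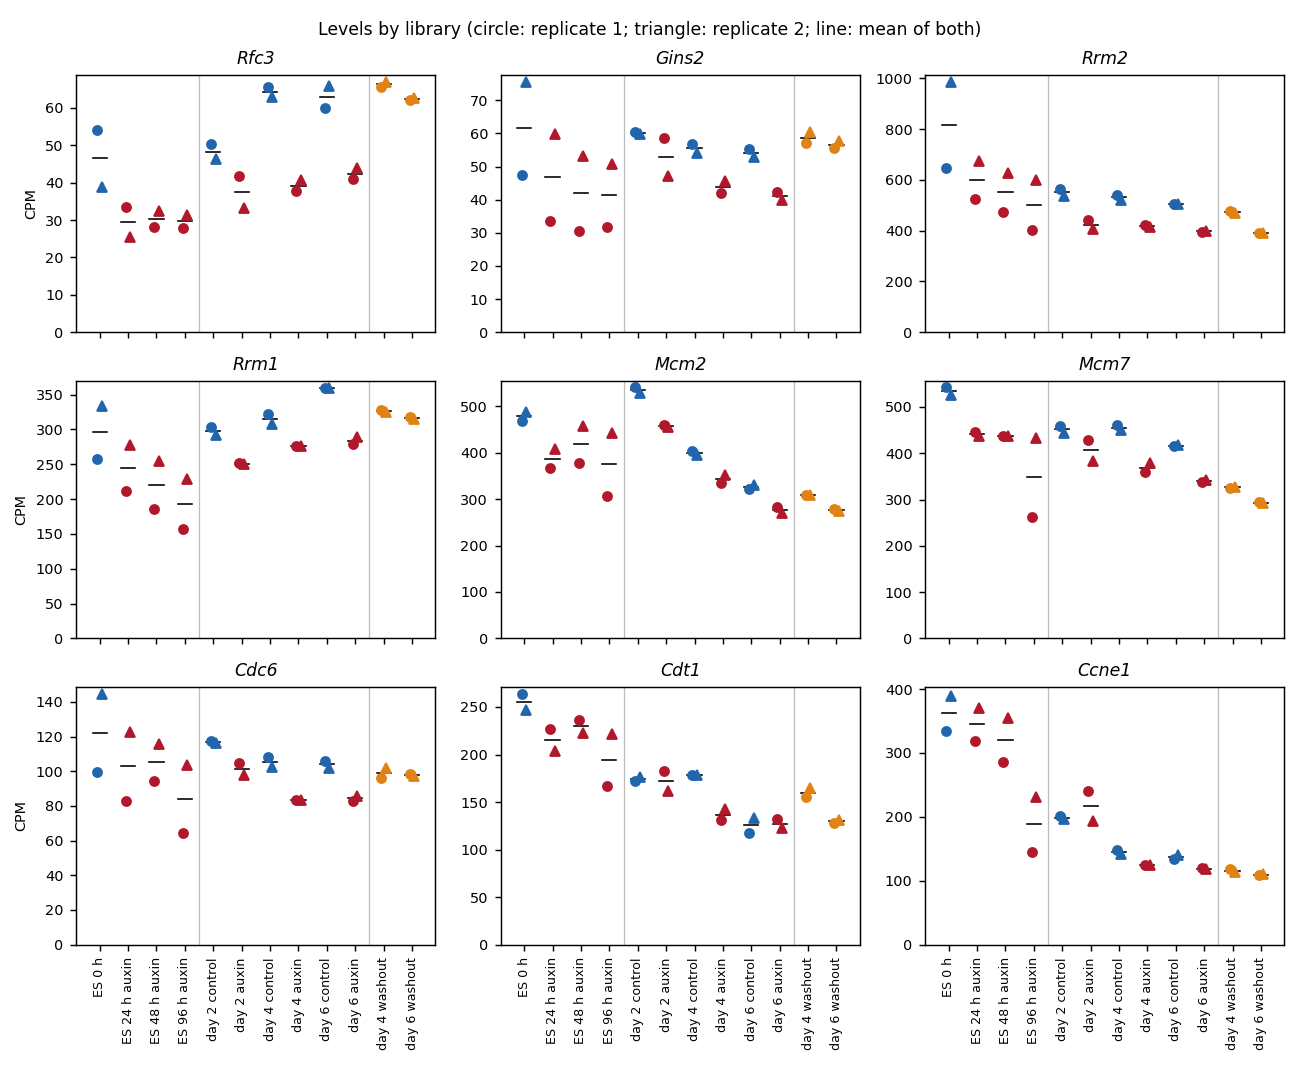
Level (CPM) of 9 replication genes in each library, by group (circles are replicate 1, triangles replicate 2, lines the mean of both). Rfc3 and Gins2 are low with auxin on days 4 and 6 and near day 6 control levels in the day 4 washout. Mcm7 stays at 326 CPM in both day 4 washout libraries beside 415 and 418 CPM in day 6 controls. The Gins2 level is uncertain, since 67.3% of its exons overlap Gse1.

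Effects were also compared between days. The auxin effects on Ccne1, Cdt1 and Mcm10 differed between day 4 and day 2, each lower on day 4. Of all genes 5.34% were called in that direction and 4.56% in the other. The difference was -0.35 for Mcm10 (SE 0.0761, adjusted p = 0.00779), -0.39 for Cdt1 (adjusted p = 0.0322) and -0.37 for Ccne1 (adjusted p = 0.0445). Between day 6 and day 4 only Cdt1 passed, with a difference of 0.40 (SE 0.109, adjusted p = 0.048), where 2.05% of all genes were called in that direction and 2.19% in the other. The day 4 libraries enter both contrasts with opposite sign, so the 2 differences of Cdt1 are not independent. Without day 2 auxin replicate 2 the first count was 23 and without replicate 1 it was 9. The other counts without 1 library ranged down to 0 in both contrasts, and for Rfc3 or Rrm2 no difference between days was called.

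In the other cell cycle lists the calls are read beside 11.8% of all genes called each way on day 4 and 15.2% lower and 14% higher on day 6. Of 40 other fork, checkpoint and chromatin assembly genes 9 were lower and 1 higher on day 4 and 12 and 0 on day 6, with medians of -0.0956 and -0.122, and Uhrf1, which carries DNA methylation through replication, led on both days (log2 -0.38 and -0.45). Of 25 nucleotide supply genes 7 were lower and 1 higher on day 4 and 9 and 0 on day 6, with Mthfd2, a mitochondrial folate enzyme, at log2 -0.98 and -0.63. Of 18 G1 cyclins, kinases and inhibitors 7 were lower and 2 higher on each day, and cyclin D2 (Ccnd2) fell most (log2 -1.37 and -1.13). Of 16 pocket proteins and other E2F factors 5 were lower and 1 higher on day 4 and 4 and 0 on day 6. G2 and M phase genes had the smallest share of calls of these lists: 0 of 42 on day 4 in edgeR's quasi-likelihood test, with 4 lower and 1 higher at an unadjusted p below 0.05, and 5 lower and 1 higher on day 6. For the unadjusted counts no share of all genes is given here. On day 2, with 8.43% of all genes lower and 9.84% higher, the 5 lists in this order had 8, 10, 2, 8 and 5 lower and 3, 1, 2, 2 and 1 higher. In ES cells at 96 h, with 1.6% and 1.45%, they had 0, 1, 1, 2 and 1 lower and 0 higher, among them E2f8 (log2 -1.57) and E2f2 (-1.52), 2 further E2F factors.

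**Figure D5:**
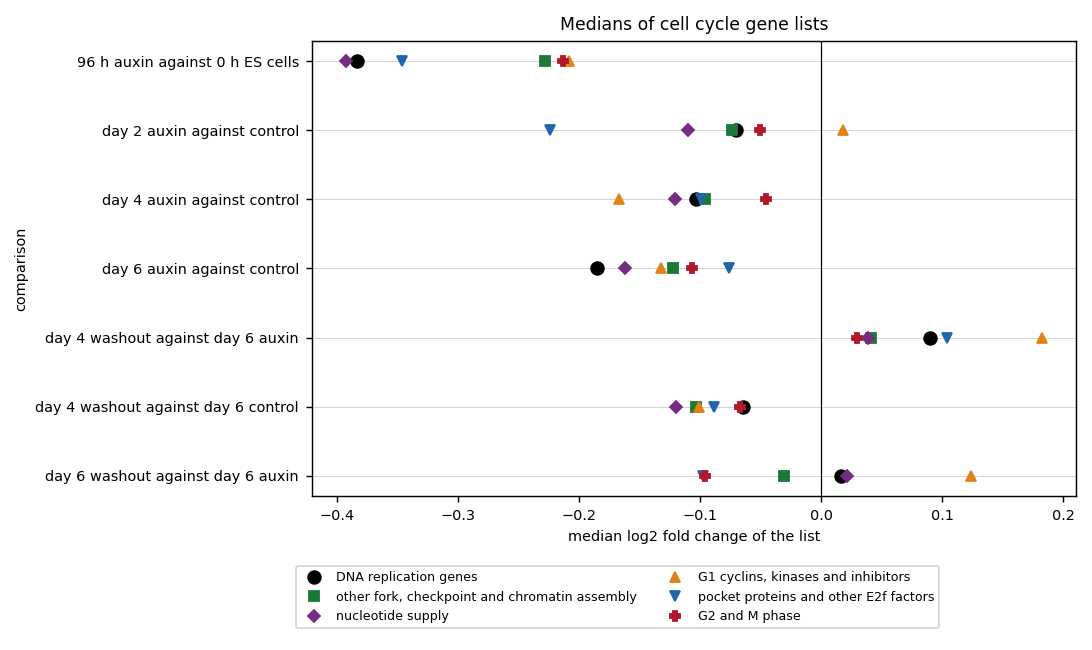
Median log2 fold change of the 48 replication genes and of 5 other cell cycle lists, in the comparisons drawn. The 48 lie at -0.185 on day 6 with auxin, the 42 G2 and M phase genes at -0.107.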

How the data were processed

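RNA-seq counts per gene, deposited by the authors in 1 table for all 24 libraries, were made with STAR and HTSeq on mm10, with edgeR also named, per the submitters' processing notes. For versions, annotation and strand setting: not given in the sources used here. Of the counts from 1 to 20, 59.6 to 78% in each library were even, so the authors' counts may hold both reads of a pair. The share was 59.6 to 60.5% in the washout libraries and 65.9 to 78% in all others. CPM were computed on each library's total multiplied by its TMM factor over all 24 libraries, and lengths and exon overlaps come from GENCODE vM21. Counts were tested with edgeR 4.0.16 (R 4.3.3): a minimum count of 10 and total of 15 for the filter, TMM, the quasi-likelihood F test, and Benjamini-Hochberg adjustment over 20361, 22587 or 23831 genes. ES comparisons used the 8 ES libraries with replicate number as a block. The labels give the pairing only as numbers, and deviations of same-numbered ES libraries correlated in all 6 pairs (0.183 to 0.736), unlike differentiation libraries (-0.201 to 0.159). Differentiation comparisons used those 16 libraries without a block, and day 2 against ES cells used all 24. Common dispersions were 0.0511, 0.0051 and 0.0439. Alternatives were DESeq2 1.42.0, limma 3.58.1 voom with group weights, no filter, an adjusted p below 0.01, counts divided by 2, the other choice of block, other libraries in the fit, and each library left out. The scripts for many genes were tested on simulated counts. Any member could be named, 10 of them throughout with up to 8 called genes each way per comparison, and up to 3 genes per other list by smallest adjusted p. The members and all lists were chosen with earlier results of these data known.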

Additional observations from a re-analysis of the deposited data

Results flagged for a closer look

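In 4 instances the auxin effect on a replication gene differed between 2 days by edgeR's quasi-likelihood test of the difference itself. Between day 4 and day 2 these were 3 of the 48 genes, all lower, beside 5.34% of all genes lower and 4.56% higher. Between day 6 and day 4 it was 1 of the 48, higher, beside 2.05% higher and 2.19% lower. Such shares are near those of all genes, and none of these calls held in every alternative setting. The auxin effect on Mcm10 was lower on day 4 than on day 2 by a log2 difference of -0.35 (SE 0.0761, adjusted p = 0.00779). On day 4 no auxin library of Mcm10 reached a control library. Cdt1 differed between day 4 and day 2 by -0.39 (SE 0.108, adjusted p = 0.0322). Ccne1 differed between the same days by -0.37 (SE 0.111, adjusted p = 0.0445). Between day 6 and day 4 Cdt1 differed in the other direction, by 0.40 (SE 0.109, adjusted p = 0.048). Both Cdt1 differences use the same day 4 libraries with opposite sign and are not independent. The last call was lost with replicate number as a block and in 7 of 8 fits without 1 library.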

How the results depend on the processing

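Among members called in the main fit no estimate changed direction, and 1210 of 1688 gene values kept their side of the threshold. Of 152 such called results 13 kept it in every setting. Members not called in the main fit were not part of this check. Numbers of members called, 5 at 96 h, 8 on day 2 against ES cells, 27 and 16 over the later control days, 9, 14 and 18 with auxin on days 2, 4 and 6, 20, 16 and 15 after washout, and 3 and 1 for differences between days, moved as follows, and the cause was not tested. At an adjusted p below 0.01 they were 0 at 96 h, 2 on day 2 against ES cells, 9 from day 4 to day 6, 5 with auxin on day 2, 12, 8 and 8 after washout, and 1 and 0 for differences. DESeq2 gave 2 at 48 h, 10 at 96 h and 6 for day 4 minus day 2. Without a filter there was 1 at 48 h, 12 at 96 h, 5 on day 2 against ES cells and 5 for day 4 minus day 2. Limma voom gave 1 at 48 h, 2 at 96 h, 4 with auxin on day 2, 28 on day 6, 23 for the day 6 washout and 2 for day 6 minus day 4. With all 24 libraries there were 11 at 96 h, 9 and 1 over the later control days, 0, 1 and 0 with auxin, 1, 0 and 1 after washout, and 0 and 0 for differences. The 4 libraries of day 2 and ES cells alone gave 0. Without the replicate block 0 remained at 96 h, and with the block 0 for day 6 minus day 4. The block moved no other number of calls by over 1.5 times. Leaving out 1 library gave 2 to 15 at 96 h, 1 to 7 on day 2 against ES cells, 7 to 8 from day 4 to day 6, 2 to 24, 6 to 10 and 10 to 14 with auxin, 12 to 17, 7 to 9 and 8 to 9 after washout, and 0 to 23 and 0 to 1 for differences. Over all genes, 621 were called at 96 h in ES cells, 1764 by DESeq2, 250 by limma voom and 0 without the block. With all 24 libraries 803 in place of 5318 were called with auxin on day 4 and 1564 in place of 6588 on day 6. Depth was lowest in the ES replicate 1 libraries, at 24696374 to 29909368 counts.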
